A study of Homo sapiens with 6 samples.

Results

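The genes described here are 43 genes of NF-kB signalling, the acute-phase response, the cytokines and chemokines, and the TNF superfamily. They were chosen by name, with earlier results of these data known and with LCN2, LTB and the SAA genes among them. All 43 were found among the 24462 gene symbols of the files. The RNA came from MDA-MB 231, a line grown from a triple-negative breast cancer, 48 h after transfection. There were 3 groups of 2 libraries each. All groups received a mimic, either a negative control (NC) mimic or a miR-200a mimic, the latter at 100 nM; the dose of the NC mimic is not given in the sources used here. The third group received the miR-200a mimic and 30 ng of pcDNA3.1-Flag-ELK3, a plasmid that expresses the coding region of the transcription factor ELK3 with a Flag tag and without its 3′UTR (the sample labels write the vector as pcDNA3.1 Hygro(+)-ELK3). No empty plasmid is named for the other groups in the sources used here. An effect of ELK3 therefore cannot be told apart from one of plasmid DNA. Transfection was transient, so transfected and untransfected cells of a culture were read together. Fewer expressing cells cannot be told apart from less RNA per cell. Nothing in the labels says whether the 2 libraries of a group came from separate cultures, so p-values measure the spread between libraries, which may be technical.

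NF-kB is a family of dimeric transcription factors held in the cytoplasm by IkB proteins. Signals from the TNF receptors, the interleukin-1 receptor and the Toll-like receptors activate IkB kinase, which marks the inhibitor for degradation and frees the dimer to enter the nucleus. Its targets include cytokines, chemokines, acute-phase proteins and its own inhibitors, which close a negative feedback loop. In triple-negative breast cancer lines the pathway is known for activity in the absence of an added stimulus, and for secretion of interleukin-6 and interleukin-8.

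Libraries held 3055915 to 4868004 counts (median 4444803), with the smallest in the NC mimic group. Levels are given as raw counts or as CPM, counts divided by library sizes that were scaled with edgeR's TMM method. The floor, taken as 3 counts in a library, was 0.611 to 0.979 CPM. ELK3 itself had 618 and 509 counts in the NC group, then 493 and 505 after miR-200a, and 406 and 337 in the libraries that carry the plasmid label. Against miR-200a its log2 difference was -0.23 (standard error 0.15, adjusted p = 0.354, edgeR quasi-likelihood test), so ELK3 counts were not higher in the libraries assigned to the plasmid. The third group is therefore called the libraries labelled for ELK3, or the ELK3-labelled libraries. Reads were taken near the 3′ end of each RNA, and how a plasmid transcript without the 3′UTR was counted is not given in the sources used here. These counts therefore may not measure expression from the plasmid. By quantitative PCR and western blot, the study reports that ELK3 mRNA and protein returned to the control level when this plasmid was added. Of the markers of the line, VIM, CD44, CAV1, AXL, MET and TGFBI were all present, with at least 465 counts in each library, although TGFBI and CD44 were lower under the ELK3 label than with miR-200a (log2 differences -1.09 and -0.61, adjusted p = 0.00257 and 0.0151). ESR1 was at 0 in all libraries, PGR at 0 or 1 and FOXA1 at 0 to 3, while GATA3 had 14 to 42 counts and EPCAM 39 to 140. The immune cell markers ITGAM and CD163 were at 0 throughout, CD14 at 2 or fewer, CD3E at 5 or fewer and PTPRC at 10 or fewer. The ELK3-labelled libraries stood apart from each other for several members, with IL6, LIF, CCL20 and CXCL8 far lower in replicate 2. For IL6, IL1B, CCL20 and PTGS2, log2 differences without one of these libraries are therefore also given.

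The methods of the study give the mimic the sequence of the 3p arm of miR-200a, which lies at chr1:1167916-1167937 (plus strand, RefSeq, GRCh38.p14). It is shown with its seed, bases 2 to 8, in capitals, since the seed sets which 3′UTR matches were sought among the members.
hsa-miR-200a-3p: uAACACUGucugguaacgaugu

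RefSeq promoter windows, 250 bases before to 50 bases after a gene's start, were at hand for 32 of the 43 members. The NF-kB consensus, searched on both strands, occurred in 15 of these (46.9%), against 7.09% of the 27305 genes with a window. The members were chosen as genes of this pathway, so these shares are a description. Below are the matches of some members, each with the motif in capitals, 5′ to 3′ along the strand of the gene. LCN2 and LTB, which rose with miR-200a, carry one each.
LCN2, chr9:128149268-128149297, plus strand: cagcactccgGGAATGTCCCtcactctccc
LTB, chr6:31582492-31582521, minus strand: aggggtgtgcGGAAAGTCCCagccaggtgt

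IL6, CXCL1, CXCL2, CCL20, BIRC3, TNFAIP3, NFKBIZ and also LCN2 were lower in the ELK3-labelled libraries than with miR-200a. Matches of the first 4 are shown here, and that of LCN2 above. The motif letters of CXCL1 and CXCL2 are the same, as is that of CXCL3, which passed no comparison.
IL6, chr7:22727117-22727146, plus strand: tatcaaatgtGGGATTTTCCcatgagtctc
CXCL1, chr4:73869304-73869333, plus strand: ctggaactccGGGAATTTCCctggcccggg
CXCL2, chr4:74099254-74099283, minus strand: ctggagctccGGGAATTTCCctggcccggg
CCL20, chr2:227813753-227813782, plus strand: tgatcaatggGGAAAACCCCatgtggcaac
CXCL3, chr4:74038749-74038778, minus strand: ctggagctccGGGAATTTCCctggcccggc

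NFKBIA, the gene of the classical inhibitor IkB-alpha, also carries the motif and stayed within a narrow range in all 6 libraries.
NFKBIA, chr14:35404811-35404840, minus strand: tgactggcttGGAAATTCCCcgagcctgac

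Of the 15 tested members with it, 2 were called higher with miR-200a than under NC mimic, and 8 were called lower in the ELK3-labelled libraries than with miR-200a. Of the 16 tested members with a window and no match, none was called in the first comparison and 10 were called lower in the second. A match here is a match of letters and was not compared with binding data.

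Of the 43 members, 40 had enough counts to be tested. CCL2 was at 0 in all libraries, TNF had at most 1 count and TNFRSF11B at most 7. In miR-200a libraries, 2 of the 40 differed from NC mimic libraries at an adjusted p under 0.05, both higher, against 0.269% of all 12650 genes tested in either direction and 0.213% higher. They were LCN2 and LTB, both named when the members were chosen. That choice was made with earlier results of these data known, so the shares of members called are a description. No member was called lower by edgeR with all 6 libraries, against 0.0553% of all genes. At an unadjusted p under 0.05, 8 members were higher (5.13% of all genes) and 1 was lower (4.11%). DESeq2 and limma also called none lower, while edgeR in a model of just the compared groups called IL11 lower. In the ELK3-labelled libraries, 22 of the 40 differed from miR-200a, against 12.9% of all genes. LTB was higher, against 7.03% of all genes, and 21 members were lower, against 5.91%. The same libraries differed from NC mimic in 12 members, against 12.9% of all genes. Of these, 2 were higher and 10 lower, where 6.92% and 5.95% of all genes were. The comparisons share libraries, so their values are set side by side and not correlated.

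**Figure D1:**
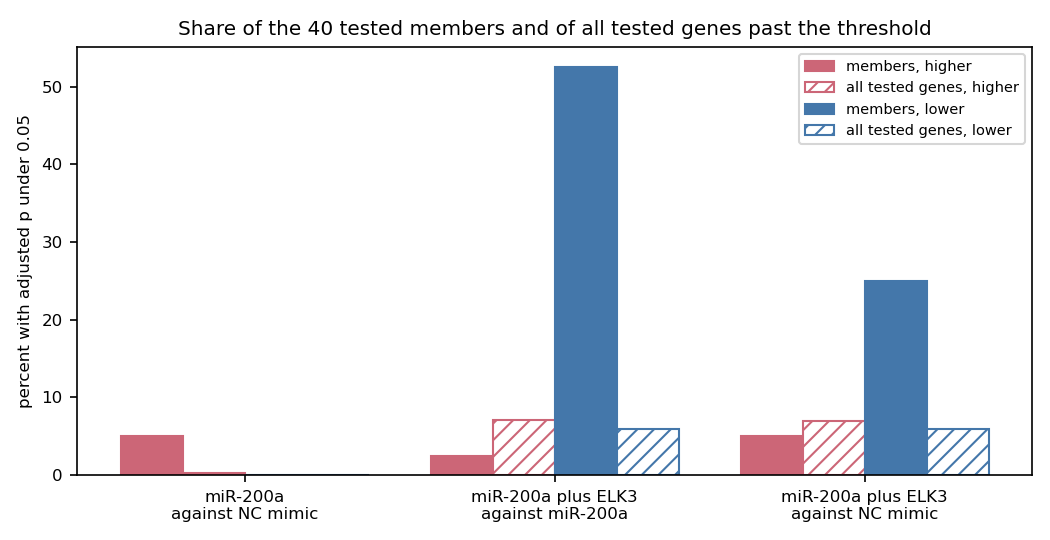
Percent of genes with an adjusted p under 0.05 (vertical axis) in each of the 3 comparisons, with filled bars for the 40 tested members and hatched bars for all 12650 tested genes, split by direction. The tallest bar is the 21 members lower in the ELK3-labelled libraries than with miR-200a, beside 5.91% of all genes. The members were chosen with earlier results of these data known.

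Over the members, the median log2 difference between miR-200a and NC mimic libraries was 0.14, where that of all tested genes was -0.02. It was -0.76 for the ELK3-labelled libraries against miR-200a (all genes 0.02) and -0.34 against NC mimic (all genes 0.01). Groups without overlap between their libraries were also counted. In the first comparison, 16 members were higher without overlap (22.9% of all genes) and 5 lower (26.1%). In the second, 28 members were lower without overlap (28% of all genes) and 5 higher (30.2%). In the last comparison, 21 were lower (27.6%) and 6 higher (29%).

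**Figure D2:**
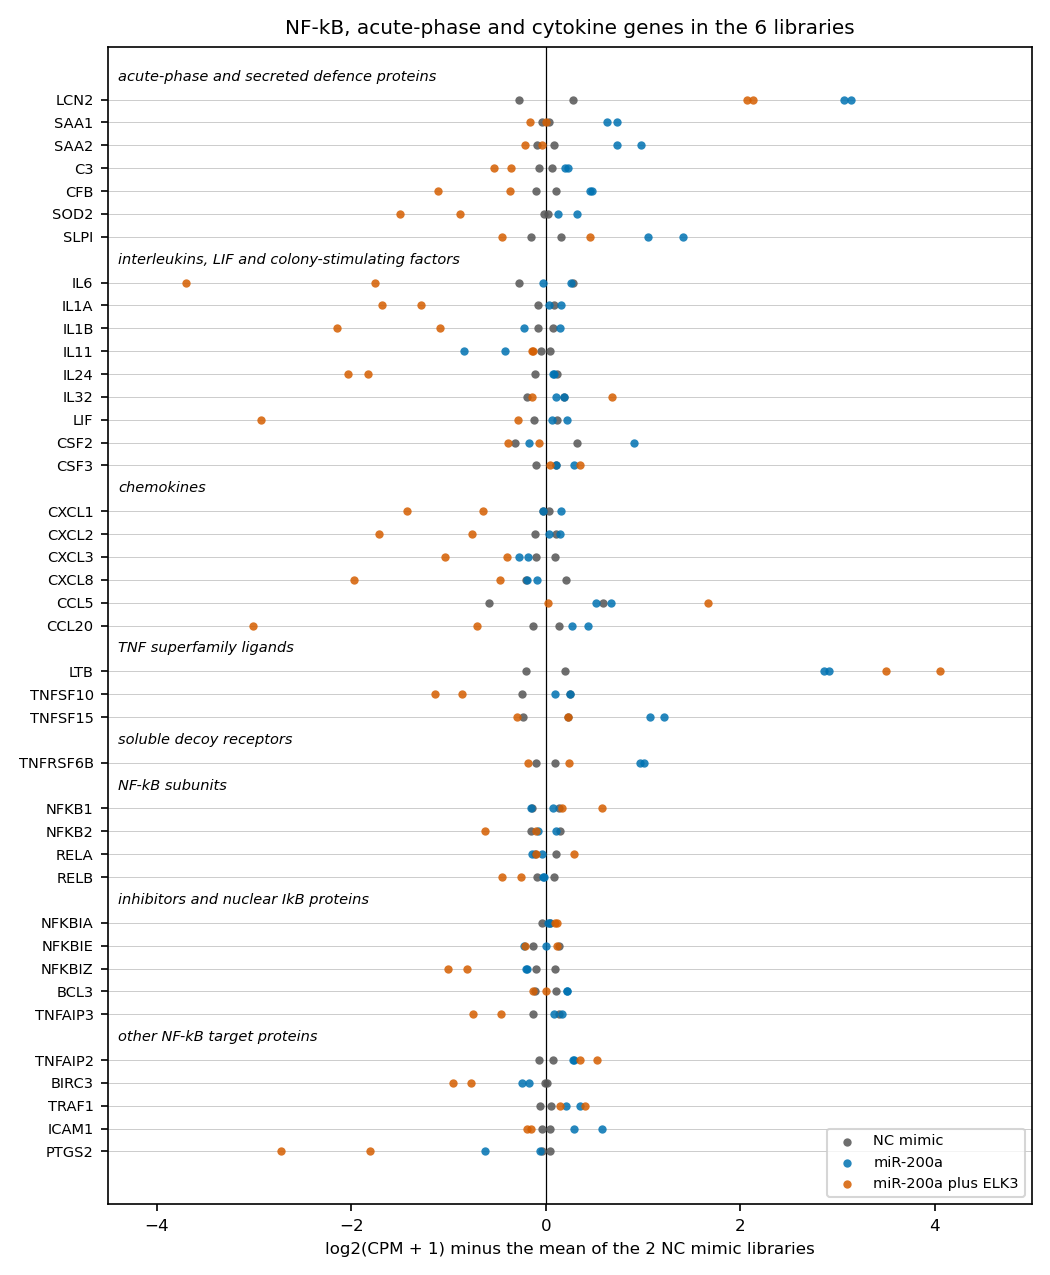
Level of each of the 40 tested members in each library, as log2(CPM + 1) minus the mean of the NC mimic libraries (horizontal axis), with members grouped by role and 1 point per library. LCN2 and LTB stand to the right in 4 libraries, and most ELK3-labelled points of the cytokines and chemokines stand to the left.

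Among the 7 acute-phase and secreted defence proteins, all 7 were higher in both miR-200a libraries than in both NC libraries, as were 22.9% of all genes, and 1 of them, LCN2, passed the test. LCN2 encodes lipocalin 2, which binds bacterial siderophores and so withholds iron. Its counts were 28 and 12 under NC mimic, 236 and 252 under miR-200a, and 106 and 102 under the ELK3 label. The 3 groups did not overlap, and the ELK3-labelled libraries lay between the other two. LCN2 (chr9:128149071-128153455, plus strand, GENCODE release 29, GRCh38) was at 5.08 ± 1.64 CPM (SD, n = 2) under NC mimic and 50.2 ± 1.66 CPM (SD, n = 2) with miR-200a. This was 9.55-fold higher (log2 difference 3.25, standard error 0.25, adjusted p = 0.000582). With the ELK3 label its level was 24.5 ± 0.800 CPM (SD, n = 2), which was 2.04-fold lower than with miR-200a (adjusted p = 0.0126) and 4.67-fold higher than under NC mimic (adjusted p = 0.00115). Without NC mimic replicate 1 or 2, the adjusted p of the rise of LCN2 was 0.0539 and 0.0773, at log2 differences of 3.67 and 3.0. Its fall had an adjusted p of 0.134 and 0.157 without miR-200a replicate 1 or 2.

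SAA1 and SAA2 encode serum amyloid A proteins, which the liver and inflamed tissues secrete. SAA1 (chr11:18266174-18269977) had 386 and 251 counts under NC mimic, 629 and 689 under miR-200a, and 317 and 358 under the ELK3 label. SAA2 (chr11:18239223-18248643) had 220 and 133, then 443 and 380, then 167 and 191. Both genes were high in the miR-200a libraries alone, and the other groups overlapped in CPM. The log2 differences for miR-200a against NC mimic were 0.69 for SAA1 (standard error 0.14, adjusted p = 0.0829) and 0.87 for SAA2 (standard error 0.17, adjusted p = 0.0715), neither past the threshold. Against miR-200a, the ELK3-labelled libraries were 1.70-fold lower for SAA1 (adjusted p = 0.00903) and 2.01-fold lower for SAA2 (adjusted p = 0.00652). Against NC mimic they differed by -0.08 and -0.13 on the log2 scale, with standard errors of 0.14 and 0.17. The transcripts share sequence, with 35.9% of the 50-base words in their last 500 bases in common, so reads could be split between them and the pair is better read together. SAA2 also overlaps the readthrough gene SAA2-SAA4.

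C3, the central component of complement, and CFB, the factor B protease of its alternative pathway, were lower in the ELK3-labelled libraries than with miR-200a. C3 counts were 537 and 335, 634 and 658, and 332 and 378 in the order NC mimic, miR-200a and ELK3 label. For CFB they were 120 and 95, 192 and 199, and 54 and 94. The falls from miR-200a were 1.59-fold for C3 (adjusted p = 0.0149) and 2.30-fold for CFB (adjusted p = 0.0151), and neither passed against NC mimic (adjusted p = 0.0575 and 0.0915). SOD2, the mitochondrial superoxide dismutase, had 1025 and 720 counts, then 1218 and 1425, then 529 and 345. SOD2 was 2.63-fold lower than with miR-200a (adjusted p = 0.00293) and 2.24-fold lower than under NC mimic (adjusted p = 0.00532). CFB and C3 each overlap another gene on the same strand in the annotation (C2 and GPR108). SOD2 overlaps WTAP on the opposite strand, and the strand setting of the counting is not given in the sources used here. SLPI, a secreted inhibitor of leukocyte proteases, had 12 and 6, then 28 and 38, then 6 and 15 counts. In the main analysis it passed no comparison, at log2 differences of 1.51 (adjusted p = 0.336) and -1.44 (adjusted p = 0.0689).

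Of the 4 TNF superfamily ligands, 3 were tested, and they differed from each other in response. LTB encodes lymphotoxin beta, the membrane partner of lymphotoxin alpha and ligand of the lymphotoxin beta receptor. It had 20 and 19 counts under NC mimic, 223 and 218 under miR-200a, and 294 and 438 under the ELK3 label. The groups did not overlap, and the ELK3-labelled libraries were the highest, the reverse of LCN2. LTB (chr6:31580525-31582522, minus strand) rose 8.67-fold with miR-200a (log2 difference 3.12, standard error 0.28, adjusted p = 0.00173), from 5.33 ± 1.23 to 45.4 ± 1.33 CPM (SD, n = 2 each). Its level with the ELK3 label was 86.3 ± 23.6 CPM (SD, n = 2), 1.90-fold above miR-200a (adjusted p = 0.0188) and 16.5-fold above NC mimic (adjusted p = 6.65e-05). Without NC mimic replicate 1 or 2, the adjusted p of the first rise of LTB was 0.200 and 0.0812, at log2 differences of 2.87 and 3.34, and with limma it was 0.0850. The second rise of LTB did not pass in a model of just the compared groups (adjusted p = 0.0520), with limma (0.132), without miR-200a replicate 1 or 2 (0.164 and 0.186), or without NC mimic replicate 1 or 2 (0.0535 and 0.0533). LTB was the only member called higher in the ELK3-labelled libraries than with miR-200a.

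TNFSF15, or TL1A, is the ligand of death receptor 3, and TNFRSF6B is a soluble decoy receptor that binds TNFSF15, LIGHT and Fas ligand. TNFSF15 had 131 and 64 counts under NC mimic, 282 and 261 under miR-200a, and 84 and 124 under the ELK3 label. TNFRSF6B had 163 and 128, then 382 and 379, then 195 and 146. Ligand and decoy were thus both high in the miR-200a libraries alone. The difference between miR-200a and NC mimic libraries was 1.14 on the log2 scale for TNFSF15 (standard error 0.23, adjusted p = 0.0829) and 1.01 for TNFRSF6B (standard error 0.18, adjusted p = 0.0655), neither past the threshold. The ELK3-labelled libraries were 2.28-fold lower than miR-200a for TNFSF15 (adjusted p = 0.0117) and 1.94-fold lower for TNFRSF6B (adjusted p = 0.0105). Against NC mimic, the log2 differences were -0.05 and 0.05. TNFRSF6B overlaps the readthrough gene RTEL1-TNFRSF6B.

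TNFSF10, or TRAIL, which triggers apoptosis through death receptors, had 35 and 35, then 55 and 50, then 20 and 16 counts. It was 2.53-fold lower in the ELK3-labelled libraries than with miR-200a (adjusted p = 0.0292), and against NC mimic the adjusted p was 0.0567. TNF itself, the founding ligand, had 0 or 1 count per library, so no change could be read at this depth. The decoy receptor TNFRSF11B had 5 and 1, 7 and 7, and 5 and 4 counts.

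When the model held just the compared groups, 12 members differed between these groups, where 7.9% of all genes did. For miR-200a these were LCN2, LTB, SAA1, SAA2, TNFSF15, TNFRSF6B, SLPI, CFB, SOD2, ICAM1 and TNFAIP2, all higher, and IL11, which was lower. Without ELK3-labelled replicate 1 or 2, 12 were called as well (7.83% and 7.91% of all genes). Without NC mimic replicate 1 or 2, edgeR called 0 members and 0% of all genes, with 7 members at an unadjusted p under 0.05 in each case (5.72% and 4.37% of all genes). With all libraries, DESeq2 called 6 members (0.696% of all genes) and limma 1 (0.0316%).

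**Figure D3:**
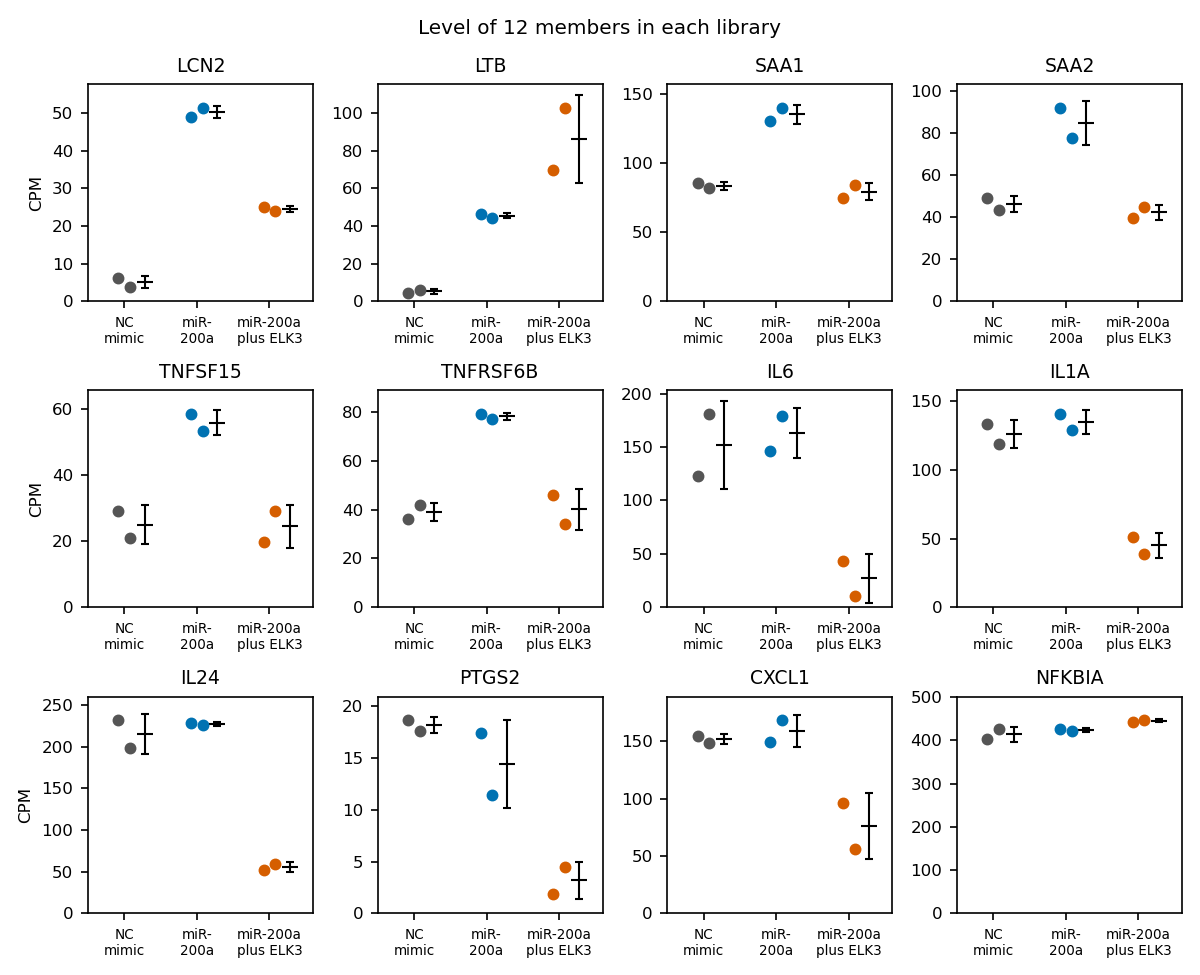
CPM of 12 members in each of the 6 libraries (points), with the mean and SD of each group (bars, n = 2) and vertical axes from 0. LCN2 and LTB were high in both groups with miR-200a, SAA1, SAA2, TNFSF15 and TNFRSF6B in the miR-200a libraries alone, and IL6, IL1A, IL24, PTGS2 and CXCL1 were lowest under the ELK3 label.

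The 9 interleukins, LIF and colony-stimulating factors showed another pattern. In the 6-library model none was called between miR-200a and NC mimic, with 1, IL11, at an unadjusted p under 0.05. IL11 was called lower in the model of just these groups, and without ELK3-labelled replicate 1 or 2. With the ELK3 label, 4 were called lower than in both other groups, namely IL6, IL1A, IL1B and IL24. IL6, which signals through gp130 to STAT3 and induces acute-phase genes, had 552 and 555 counts under NC mimic, 704 and 880 under miR-200a, and 183 and 45 under the ELK3 label. Both ELK3-labelled libraries were below the other 4, and they differed from each other. IL6 (chr7:22725884-22732002, plus strand) was at 152 ± 41.1, 163 ± 23.4 and 27.0 ± 23.2 CPM (SD, n = 2 each). It was 6.04-fold lower than with miR-200a (log2 difference -2.59, standard error 0.44, adjusted p = 0.00745) and 5.62-fold lower than under NC mimic (adjusted p = 0.00788). The size rested on ELK3-labelled replicate 2, without which the log2 difference from miR-200a was -1.95. Without replicate 1 it was -3.94. Over all 17 alternatives, the log2 difference of IL6 from NC mimic was -3.8 to -1.81. IL6 overlaps the gene STEAP1B on the opposite strand in the annotation, and the strand setting of the counting is not given in the sources used here.

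IL1A and IL1B encode the ligands of the interleukin-1 receptor. IL1A counts were 599 and 365, 678 and 632, and 217 and 164 in the same order of groups, and IL1B counts were 232 and 177, 291 and 229, and 106 and 49. IL1A was 3.0-fold lower than with miR-200a (adjusted p = 0.00121) and 2.81-fold lower than under NC mimic (adjusted p = 0.000991). For IL1B the folds were 2.92 (adjusted p = 0.0114) and 2.98 (adjusted p = 0.0104), and the log2 difference of IL1B from miR-200a was -2.21 and -1.13 without ELK3-labelled replicate 1 or 2, and from NC mimic -2.22 and -1.14. IL24, a cytokine of the interleukin-10 family, had the smallest p-value of the members against miR-200a. Its counts were 1044 and 609 under NC mimic, 1102 and 1108 under miR-200a, and 218 and 254 under the ELK3 label. IL24 (chr1:206897443-206904139) was 4.08-fold lower than with miR-200a (log2 difference -2.03, standard error 0.14, adjusted p = 0.000149) and 3.88-fold lower than under NC mimic (adjusted p = 0.000127). IL1A and IL24 stayed past the threshold in both comparisons under all 17 alternatives.

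The other interleukins and growth factors were not called in the main analysis. Without a filter on low counts, LIF was called in both comparisons with the ELK3 label (13.4% and 13.5% of all genes). LIF, a cytokine of the interleukin-6 family, had 116 and 94, then 142 and 162, then 97 and 12 counts, and its ELK3-labelled libraries stood at 23.0 and 2.82 CPM (log2 difference from miR-200a -1.28, adjusted p = 0.153). IL11, of the same family, had 139 and 89, 107 and 80, and 115 and 115 counts. IL32 ranged from 57.8 to 106 CPM, and its highest library was ELK3-labelled replicate 2. CSF3, the granulocyte factor, had 618 and 364, 665 and 768, and 556 and 693 counts, and its log2 difference from miR-200a was 0.00 (standard error 0.15). CSF2, the granulocyte-macrophage factor, was at 13 to 55 counts.

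Among the 7 chemokines, 6 were tested, and CCL2 was not detected. None was called with miR-200a by edgeR, and none had an unadjusted p under 0.05. CXCL1 and CXCL2, neutrophil attractants that bind CXCR2, were called lower under the ELK3 label than in both other groups in the main analysis. With limma neither was called in either comparison. In a model of just the compared groups, neither was called against NC mimic, and CXCL1 was not called against miR-200a. CXCL1 had 695 and 455 counts under NC mimic, 718 and 828 under miR-200a, and 407 and 238 under the ELK3 label. CXCL2 had 343 and 273, then 408 and 450, then 204 and 104. CXCL1 was 2.09-fold below miR-200a (adjusted p = 0.0142) and 1.99-fold below NC mimic (adjusted p = 0.0175), and CXCL2 2.42-fold (adjusted p = 0.0138) and 2.27-fold (adjusted p = 0.0182). They share 10.2% of the 50-base words in their last 500 bases.

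CCL20, the ligand of CCR6, had 75 and 62, 121 and 110, and 46 and 6 counts, and was 3.86-fold lower than with miR-200a (adjusted p = 0.0388). With DESeq2 its adjusted p was 0.192. Without ELK3-labelled replicate 2 the log2 difference of CCL20 was -1.17 and without replicate 1 it was -4.05. CXCL8, or interleukin-8, a neutrophil attractant, had 2067 and 1884, 2247 and 2450, and 1619 and 575 counts. Both ELK3-labelled libraries of CXCL8 were below the other 4 in CPM, but the log2 differences of -0.90 from miR-200a (standard error 0.35, adjusted p = 0.119) and -1.05 from NC mimic (standard error 0.36, adjusted p = 0.0778) did not pass. Without a filter on low counts, CXCL8 was called in both comparisons (13.4% and 13.5% of all genes). CXCL3 had 98 and 58, 80 and 87, and 64 and 40 counts and also did not pass in the main analysis. CCL5 was low, at 4 to 34 counts.

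The genes of the NF-kB proteins themselves were not called in the 6-library model. Without ELK3-labelled replicate 2, NFKB1 and NFKB2 were called in both comparisons with that label, and without replicate 1 RELA was. In replicate 1 NFKB1 was at 54.7 CPM and NFKB2 at 146 CPM, against means of 35.4 and 228 CPM with miR-200a. NFKB1 was thus higher and NFKB2 lower. In replicate 2 NFKB1 was at 40.9 CPM, NFKB2 at 211 CPM and RELA at 164 CPM, where RELA had a mean of 126 CPM with miR-200a. NFKB1 and NFKB2 encode the p105 and p100 precursors, and RELA and RELB the transactivating partners of the classical and the alternative pathway. For miR-200a against NC mimic, the log2 differences of these 4 lay between -0.09 and 0.01, with standard errors of 0.16 to 0.20. Against miR-200a, those of the ELK3-labelled libraries lay between -0.35 and 0.43, and the smallest adjusted p was 0.173, for NFKB1. NFKB1 had 180 and 101 counts under NC mimic, 184 and 160 under miR-200a, and 231 and 174 under the ELK3 label. RELA had 557 and 443, 627 and 597, and 526 and 699.

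Among the 5 inhibitors and nuclear IkB proteins, 2 were called. NFKBIA was at 415 ± 17.2, 424 ± 4.04 and 445 ± 3.59 CPM (SD, n = 2 each) in the order of groups, with log2 differences of 0.03 and 0.07 (standard error 0.11 each) with miR-200a and then with the ELK3 label. NFKBIE, which encodes IkB-epsilon, had 142 and 80, 139 and 120, and 104 and 133 counts. NFKBIZ, the gene of the nuclear protein IkB-zeta, which helps NF-kB to induce IL6 and LCN2, had 747 and 583, 745 and 763, and 371 and 430 counts. It was 1.64-fold lower under the ELK3 label than with miR-200a (adjusted p = 0.0120) and 1.88-fold lower than under NC mimic (adjusted p = 0.00416). TNFAIP3, or A20, a ubiquitin-editing enzyme that ends the signal, had 145 and 82, 151 and 162, and 72 and 90 counts. It was 1.68-fold lower than with miR-200a (adjusted p = 0.0409), and the adjusted p under a replicate block was 0.0661. TNFAIP3 was also not called with DESeq2, with limma or in a model of just the compared groups. BCL3 had 340 and 200, 396 and 401, and 297 and 273 counts and was not called.

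Of the 5 other targets, 3 were called lower under the ELK3 label. PTGS2, or cyclooxygenase 2, which makes prostaglandin precursors, had 84 and 54 counts under NC mimic, 84 and 56 under miR-200a, and 8 and 19 under the ELK3 label. It was 4.5-fold lower than with miR-200a (log2 difference -2.17, standard error 0.40, adjusted p = 0.00947) and 5.67-fold lower than under NC mimic (adjusted p = 0.00482). Without ELK3-labelled replicate 1 or 2, the log2 difference of PTGS2 from miR-200a was -1.68 and -2.95, and from NC mimic -2.0 and -3.27. BIRC3, or cIAP2, a ubiquitin ligase of the TNF receptor complex, had 720 and 483, 647 and 693, and 391 and 347 counts, and was 1.58-fold (adjusted p = 0.0140) and 1.83-fold (adjusted p = 0.00449) lower. ICAM1, the leukocyte adhesion receptor, had 279 and 180, 356 and 445, and 230 and 225 counts. It was 1.53-fold lower than with miR-200a (adjusted p = 0.0314, and 0.0548 with the replicate block). TRAF1 and TNFAIP2 were not called in the main analysis. TNFAIP2 had 480 and 362, 661 and 673, and 687 and 612 counts, and its log2 difference from NC mimic under the ELK3 label was 0.45 (adjusted p = 0.0542).

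**Figure D4:**
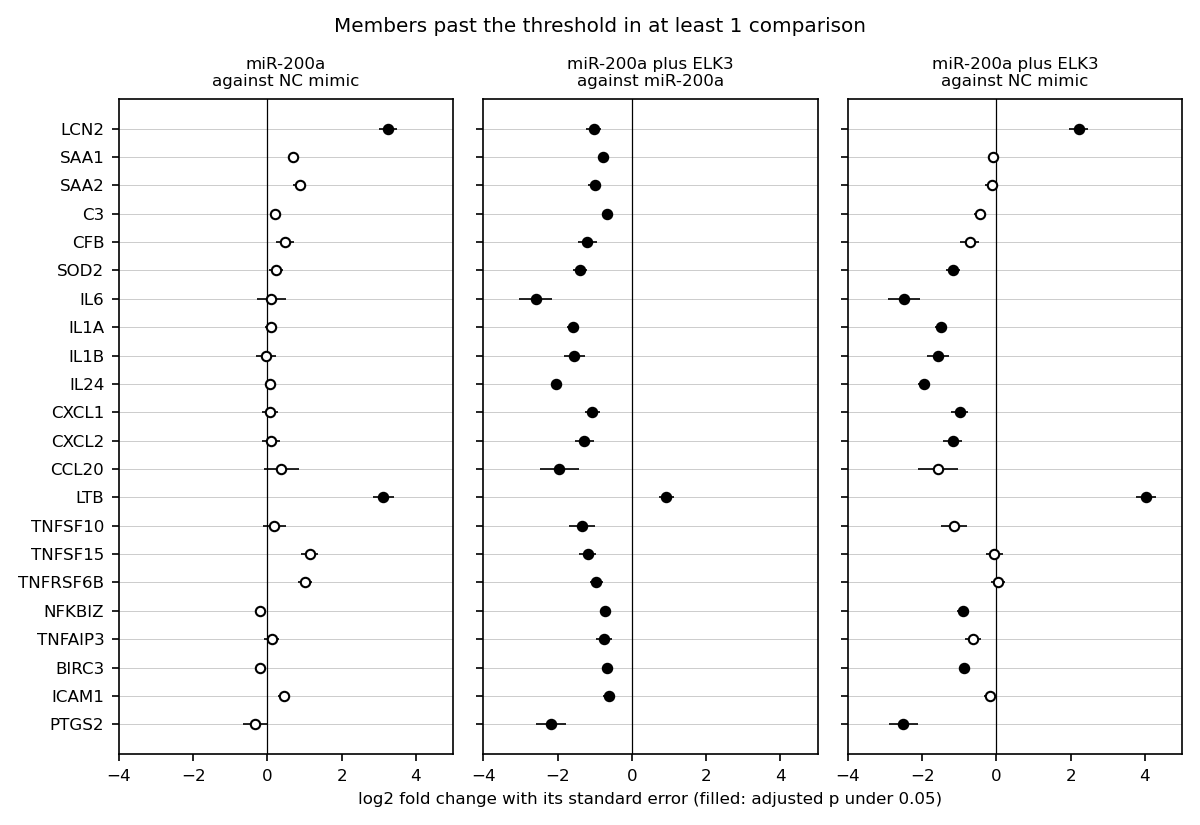
Log2 fold change with its standard error (horizontal axis) of the 22 members past the threshold in at least 1 comparison, in 1 panel per comparison, with filled points for an adjusted p under 0.05. In the left panel LCN2 and LTB are filled, and in the middle panel 21 of 22 points lie to the left of 0.

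The number of members called under the ELK3 label depended on single libraries. Over all 17 alternatives, the log2 difference from miR-200a was -0.89 to -0.69 for SAA1, -1.14 to -0.87 for SAA2 and -0.86 to -0.62 for NFKBIZ. The range was wider for CFB (-1.69 to -0.86), SOD2 (-1.74 to -1.16), CXCL1 (-1.5 to -0.76) and CXCL2 (-1.85 to -0.91). Without miR-200a replicate 1, 3 members differed between the ELK3-labelled libraries and miR-200a, and without replicate 2, 2 did, where 0.387% and 0.308% of all genes did. Without NC mimic replicate 1 or 2, 14 did (4.47% and 4.53%). Without ELK3-labelled replicate 1 or 2, the number was 28 and 26, while 37.4% and 22.5% of all genes were called. Against NC mimic, 4 members were called without NC mimic replicate 1 or 2 (0.711% and 0.719% of all genes), and 22 and 20 without ELK3-labelled replicate 1 or 2 (37.3% and 22.7%). limma called 2 members against miR-200a, IL1A and IL24 (0.846% of all genes), and 7 against NC mimic (3.09%). In a model of just the compared groups, BIRC3, C3, CCL20, CXCL1, ICAM1, LTB, TNFAIP3 and TNFSF10 lost their call against miR-200a. CXCL1 and CXCL2 lost theirs against NC mimic. A group left with 1 library was assumed to vary like the others. With upper-quartile normalization, 41.4% of all called genes were higher under the ELK3 label than with miR-200a, against 54.3% with TMM (42.9% against 53.8% in the comparison with NC mimic), and 21 members were again lower (6.97% of all genes).

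The ELK3-labelled libraries differed from each other more than those of the other groups, and the members more than other genes. The root mean square of the log2 CPM difference between the libraries of a group was 0.92 over the 40 members and 0.56 over all genes under the ELK3 label. Under NC mimic it was 0.37 and 0.40, and with miR-200a 0.27 and 0.34. Under the ELK3 label, 8 members differed by over 1 on the log2 scale (7.72% of all genes). Of these, 6 were lower in replicate 2 (5.57% of all genes) and 2 were higher (2.15%). The 6 were LIF, CCL20, IL6, CCL5, CXCL8 and IL1B, and the 2 were SLPI and PTGS2. ZFP36, an mRNA decay factor that is no member and was picked after its values were seen, had 66 and 5 counts in these libraries. The part of this difference in the falls was not tested beyond leaving out each library.

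**Figure D5:**
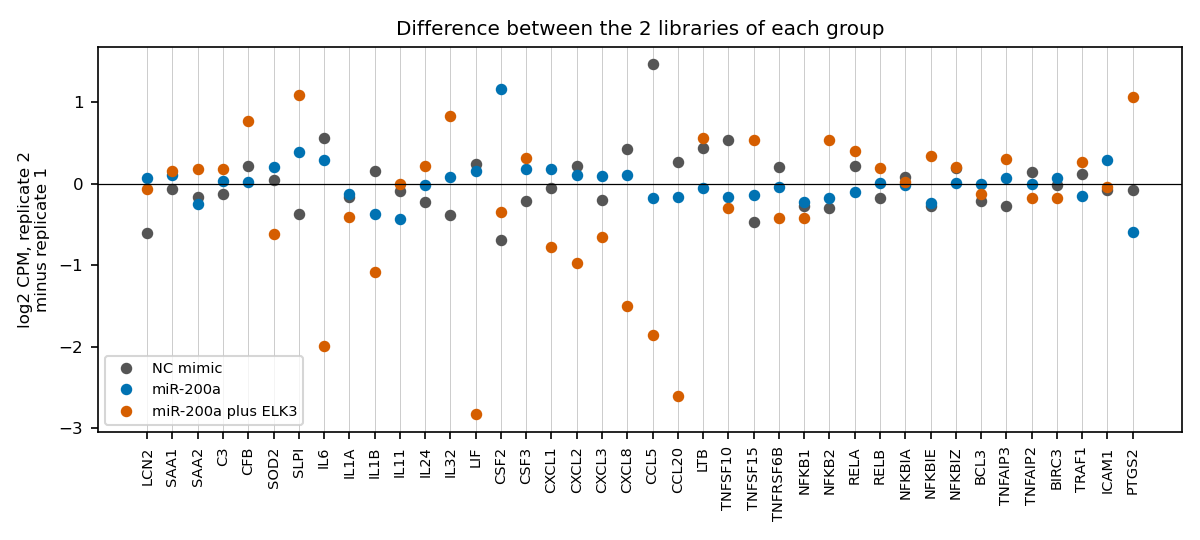
Log2 CPM of replicate 2 minus that of replicate 1 (vertical axis) for each of the 40 tested members, with 1 point per group. Points of the NC mimic and miR-200a groups lie mostly within 0.6 of 0, while those of the ELK3-labelled libraries reach below -2 for LIF and CCL20.

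Other genes of the pathway were listed by role, with earlier results of these data known. Single genes of these lists were not followed through the alternatives. Their counts are to be read against the 7.03% of all genes called higher and 5.91% lower than with miR-200a under the ELK3 label, and the 6.92% and 5.95% against NC mimic. Of 18 tested receptors and adaptors, none was called with miR-200a in the 6-library edgeR model, with 1 at an unadjusted p under 0.05. Under the ELK3 label, 1 was higher and 3 lower than with miR-200a, and the same was true against NC mimic. IRAK1, a kinase of the interleukin-1 receptor, was 2.73-fold higher than with miR-200a (adjusted p = 0.00236), at 327 and 201, 292 and 360, and 649 and 904 counts. IRAK3 and IRAK2, of the same family, and the receptor chain IL1RAP were 2.27-fold, 2.55-fold and 2.78-fold lower (adjusted p = 0.0171, 0.0209 and 0.0254). Counts in the ELK3-labelled libraries were 39 and 36 for IRAK3, 62 and 30 for IRAK2, and 43 and 21 for IL1RAP. Of 13 kinases and remaining Rel and IkB proteins, 1 was called in each comparison with the ELK3 label. IKBKG, the regulatory subunit NEMO of the kinase complex, was 2.18-fold higher than with miR-200a (adjusted p = 0.0251), and IKBKE was 2.21-fold higher than under NC mimic (adjusted p = 0.0211). Of 11 ubiquitin ligases and deubiquitinases, 1 was called, BIRC2, at 1.36-fold lower than under NC mimic (adjusted p = 0.0386).

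Among the 12 genes of the interleukin-6 family receptors and STAT3 signalling, 1 was called with miR-200a. IL6R, the ligand-binding receptor of interleukin-6, had 28 and 22 counts under NC mimic, 117 and 97 under miR-200a, and 72 and 81 under the ELK3 label. It was 3.30-fold higher with miR-200a (adjusted p = 0.0342) and 2.70-fold higher under the ELK3 label than under NC mimic (adjusted p = 0.00996). PIM1, a kinase induced by STAT3, was 4.84-fold lower under the ELK3 label than with miR-200a (adjusted p = 0.00652), and CEBPB, the transcription factor first named for IL6, was 2.11-fold lower (adjusted p = 0.0138). In the miR-200a and then the ELK3-labelled libraries, PIM1 had 1411 and 1451, then 392 and 123 counts. CEBPB had 2462 and 2589, then 1335 and 747. LIFR was 1.54-fold lower (adjusted p = 0.0319). In this list 4 genes were lower than with miR-200a and none higher.

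Of 15 other NF-kB targets, 2 were lower than with miR-200a, GADD45B (2.02-fold, adjusted p = 0.0145) and PLAUR (1.54-fold, adjusted p = 0.0231). Relative to NC mimic, BCL2L1 and SDC4 were higher, each 1.42-fold, and GADD45B lower. Of 9 other TNF superfamily ligands and receptors, TNFSF9 (2.98-fold, adjusted p = 0.0225) and TNFRSF10D (1.67-fold, adjusted p = 0.0260) were lower than with miR-200a. Relative to NC mimic, TNFRSF12A was 1.69-fold higher (adjusted p = 0.0499) and 3 genes were lower. Of the 5 regulators of cytokine mRNA decay, ZFP36L1 was called, 2.46-fold below miR-200a (adjusted p = 0.00233) and 2.68-fold below NC mimic (adjusted p = 0.000913).

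The 3′UTRs of the members were searched for elements by which small RNAs and decay factors act. The letters CAGTGTT, which pair with the seed of miR-200a, occurred in the 3′UTR of 8 of the 43 members (18.6%), and of 16.9% of 18035 genes (GENCODE release 29, GRCh38). The 8 were IL1A, LIF, CSF3, CXCL1, CXCL2, TNFAIP3, ICAM1 and PTGS2. In the 6-library model none was called between miR-200a and NC mimic, with log2 differences from -0.34 to 0.44 and a median of 0.11. ICAM1 was called higher in the model of just these groups, and without ELK3-labelled replicate 1 or 2. PTGS2, the only member whose match is followed by an A, had the lowest log2 difference of the 8, -0.34 (standard error 0.32, adjusted p = 0.824). IL1A and TNFAIP3, with 2 matches each, were at 0.09 and 0.12. The match of PTGS2 is shown here in capitals.
PTGS2, chr1:186673532-186673561, minus strand: gtggagccactgCAGTGTTatcttaaaata

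LCN2, LTB, SAA1 and SAA2 had no such match. The nonamer TTATTTATT, a core of AU-rich elements that destabilise cytokine mRNAs, occurred in 14 of the 43 members (32.6%) and in 7.64% of genes. Of the 13 tested members with the nonamer, 8 were lower under the ELK3 label than with miR-200a, with a median log2 difference of -0.96. Of the 27 without it, 13 were lower, with a median of -0.62. A match of letters does not show that a site is used, and these counts were not tested.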

How the data were processed

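MDA-MB 231 RNA was made into QuantSeq 3′ libraries, 2 in each of 3 groups taken from the sample labels. The authors deposited counts, whole numbers of reads per gene symbol that were not normalized. The submitters' processing notes name Bowtie2, edgeR and the build hg19, with no versions; the counter, its annotation and its strand setting are not given in the sources used here. Coordinates and sequences printed here come from GRCh38 and were matched by symbol.

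Lines sharing a symbol were summed (286 of 24462 symbols). The tests used edgeR 4.0.16 in R 4.3.3: filterByExpr with a minimum count of 10, TMM normalization, and the quasi-likelihood test with all 6 libraries in 1 model (3 residual degrees of freedom). Benjamini-Hochberg adjustment ran over 12650 genes, with a threshold of 0.05. Library sizes were sums over the tested genes. This version and one with sums over all genes were both run before one was kept, and the first was kept knowing that its number of calls matched an earlier analysis of these data. The second is among the alternatives. Other alternatives were DESeq2 1.42.0, limma 3.58.1 on quantile-normalized log2(count + 1), other scalings, filters, models restricted to the compared groups, a replicate block and leaving out each library. The procedure was tested on simulated data, with 200 genes changed between miR-200a and NC mimic libraries. It recovered 65% of the 2-fold and 96% of the 4-fold changes, and 5.85% of its calls were false. A 2-fold change could therefore be missed.

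The members and all gene lists were chosen with earlier results of these data known. Members named with full statistics are LCN2, LTB, SAA1, SAA2 and those with an adjusted p under 0.05 in at least 1 comparison, and up to 4 genes of each other list, smallest p first. The standard error is the log2 difference divided by the root of the F statistic. Depth floors cover counting error only.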

Additional observations from a re-analysis of the deposited data

How the results depend on the processing

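The number of members called depended on the model and on single libraries. Between miR-200a and the NC mimic, 2 were called in the main analysis, 6 with DESeq2, 6 without a filter on low counts (1.23% of all genes), 1 with limma and 12 in a model of just the compared groups, and 0 to 12 when 1 library was left out. Between the ELK3-labelled libraries and miR-200a, 22 were called, 2 with limma, 14 in a model of just the compared groups and 2 to 28 when 1 library was left out. Against the NC mimic, 12 were called, 7 with limma, and 4 to 22 when 1 library was left out. The cause was not tested. The labels do not say whether the replicate numbers pair the libraries. Deviations of same-numbered libraries had correlations over genes of -0.003, -0.036 and -0.108. Counting noise enters these correlations, so they do not decide whether libraries were paired. With the replicate number as a block, 2, 20 and 12 members were called (0.103%, 9.15% and 9.25% of all genes), and TNFAIP3 and ICAM1 lost their call against miR-200a. With the numbers of the ELK3-labelled libraries crossed, an alternative chosen after seeing the data, 2, 23 and 13 were called (0.174%, 13.0% and 13.1%). With library sizes over all genes, also run after seeing the data, the numbers were 2, 22 and 12. None of the 22 named members reversed direction with a call on either side in the alternatives that tested it (16 or 17 each). The largest standard errors of the members were those of CCL5, at low counts, with 0.65 to 0.77 on the log2 scale, against 0.11 for NFKBIA.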
